A study of Mus musculus with 4 samples.

Results

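The circadian clock genes described here are the 10 genes Arntl, Clock, Npas2, Per1, Per2, Per3, Cry1, Cry2, Nr1d1 and Dbp. They were chosen by name, and all 10 were found among the 29300 genes of the deposited table and were expressed highly enough to be tested. Gene coordinates below are those of the table (mm10). Hippocampal RNA was sequenced from 2 control mice and 2 surgery mice on day 1. All 4 were C57BL/6 mice. Per the study's methods the animals were males aged 7 to 8 months, and both groups received isoflurane (2.1%) and tramadol (30 mg/kg). The surgery mice underwent an open fracture of the tibial shaft with intramedullary nailing, the operation used in this study to model perioperative neurocognitive disorder (PND), whereas the control mice (sham in the labels) had the anesthesia and analgesia without the operation. The mice lived under 12 h of light and 12 h of dark. The hour at which the hippocampus was collected is not given in the sources used here.

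The circadian clock is a transcriptional feedback loop present in most cells. The activator BMAL1, encoded by Arntl, pairs with CLOCK or with its paralog NPAS2 and binds E-boxes in the promoters of the Per, Cry, Nr1d1 and Dbp genes. The PER and CRY proteins accumulate, enter the nucleus and repress the activators that drive them. REV-ERBα, encoded by Nr1d1, represses Arntl through ROR response elements (ROREs), and DBP activates genes through D-boxes. In the hippocampus the loop is known for its links to sleep and to memory.

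These elements are shown first because they connect the genes whose levels are given below. RefSeq windows from 250 bases before to 50 bases after a transcription start (GRCm38.p6) were available for 9 of the 10 genes, in 13 windows. They were searched on both strands for the E-box CACGTG, the D-box TTATGNAA, the RORE core TAGGTCA and the cAMP response element TGACGTCA. The stretches that held a match are printed 5′ to 3′ on the strand of the gene, with the matched letters in capitals. The Per1 stretch lies at chr11:69098769-69098948 on the plus strand, inside the span of the gene in the deposited table, and 1 of its 180 bases is annotated as exon. The Cry1 stretch (chr10:85185075-85185134) and the Per3 stretch (chr4:151044806-151044880) lie on the minus strand, outside the annotated exons. The Arntl stretch (chr7:113207530-113207559, plus strand) lies in an exon.
Per1: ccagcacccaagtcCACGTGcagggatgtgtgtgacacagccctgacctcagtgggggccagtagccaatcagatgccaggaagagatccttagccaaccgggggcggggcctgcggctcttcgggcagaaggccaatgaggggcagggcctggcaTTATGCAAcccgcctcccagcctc
Cry1: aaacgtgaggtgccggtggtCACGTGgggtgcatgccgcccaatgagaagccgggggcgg
Per3: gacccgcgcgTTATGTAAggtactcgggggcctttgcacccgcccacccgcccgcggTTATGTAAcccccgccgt
Arntl: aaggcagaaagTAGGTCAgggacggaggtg

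The E-box lay 166 bases upstream of the start in Per1 and 60 bases upstream in Cry1, and 7.15% of the 32851 RefSeq windows held these letters. The D-box lay 24 bases upstream in Per1 and at 205 and 158 bases upstream in Per3, against 3.38% of all windows. The RORE core in Arntl began at base 31 after the start, against 2.61% of all windows. None of the windows of these genes held the cAMP response element, which was found in 1.79% of all windows. A match describes letters in a window and not a bound site. Of the 4 genes with a match, Per1 fell after surgery, and Cry1, Per3 and Arntl did not pass the test.

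The libraries held between 15763432 and 18573386 counts, and 24238 to 25324 genes were detected in each mouse. Markers of the hippocampal subfields were present in all 4 libraries, with a summed level of 968 to 1135 CPM (counts scaled to library size), but 1 of the 7 was called higher (Zbtb20, 0.44) and 3 were called lower (Wfs1, −0.70, Fibcd1, −0.64, and Grik4, −0.61 on the log2 scale), each a larger log2 fold change than that of any of the 10 clock genes. Of the neuron markers 2 of 6 were called higher and 1 lower, of the astrocyte markers 2 of 5 higher and 1 lower, and of the microglia markers 1 of 5 higher, beside 13.1% of all genes tested higher and 12.8% lower. With length and GC trends removed, 1 of the 7 subfield markers was called, lower, 1 neuron marker was called in each direction, and the astrocyte and microglia markers were not called. Without surgery mouse 1 the neuron markers called were 1 higher and 2 lower. Control mouse 1 stood apart in the 5 markers of the choroid plexus, whose summed level was 126 CPM in control mouse 1 and 5387 in control mouse 2, against 2021 and 3434 in the surgery mice. Transcripts of the mitochondrial genome, without its rRNA and tRNA genes, took 2.82% and 2.52% of the counts in control mice and 4.44% and 4.48% in surgery mice. The summed level of 5 endothelial markers was 175 and 181 CPM in control mice and 205 and 267 CPM in surgery mice, and 2 of the 5 were called higher, against 1 without surgery mouse 2, 1 without control mouse 1, 4 without surgery mouse 1 and 0 with length and GC trends removed. That of 5 oligodendrocyte markers was 3276 CPM in surgery mouse 2 and 4572 to 5330 CPM in the other 3 mice, and 5 of the 5 were called lower without surgery mouse 1. Of the choroid plexus markers 4 of 5 were called lower without control mouse 1 and 5 of 5 higher without control mouse 2. The part of these shifts in the levels of the clock genes was not tested. In tissue RNA, fewer cells of a type and less RNA per cell cannot be told apart.

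Clock, Per1 and Cry2 passed the test of surgery mice against control mice, by the quasi-likelihood test of edgeR with Benjamini-Hochberg adjustment over all 17144 genes tested (adjusted p under 0.05). The levels of Clock rose, and those of Per1 and Cry2 fell. Thus 1 of the 10 genes was called higher and 2 were called lower, beside 13.1% and 12.8% of all genes tested. In either direction the share was 30% of the clock genes and 26.0% of all genes, so that as a group they were called about as often as the transcriptome at large. All 10 fold changes lay between 0.743 and 1.20, inside the limits of 0.67 and 1.5 that the study set for a differentially expressed gene. Of the 10 log2 fold changes 5 were positive and 5 negative, with a median of −0.035 beside 0.01 over all genes.

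**Figure D1:**
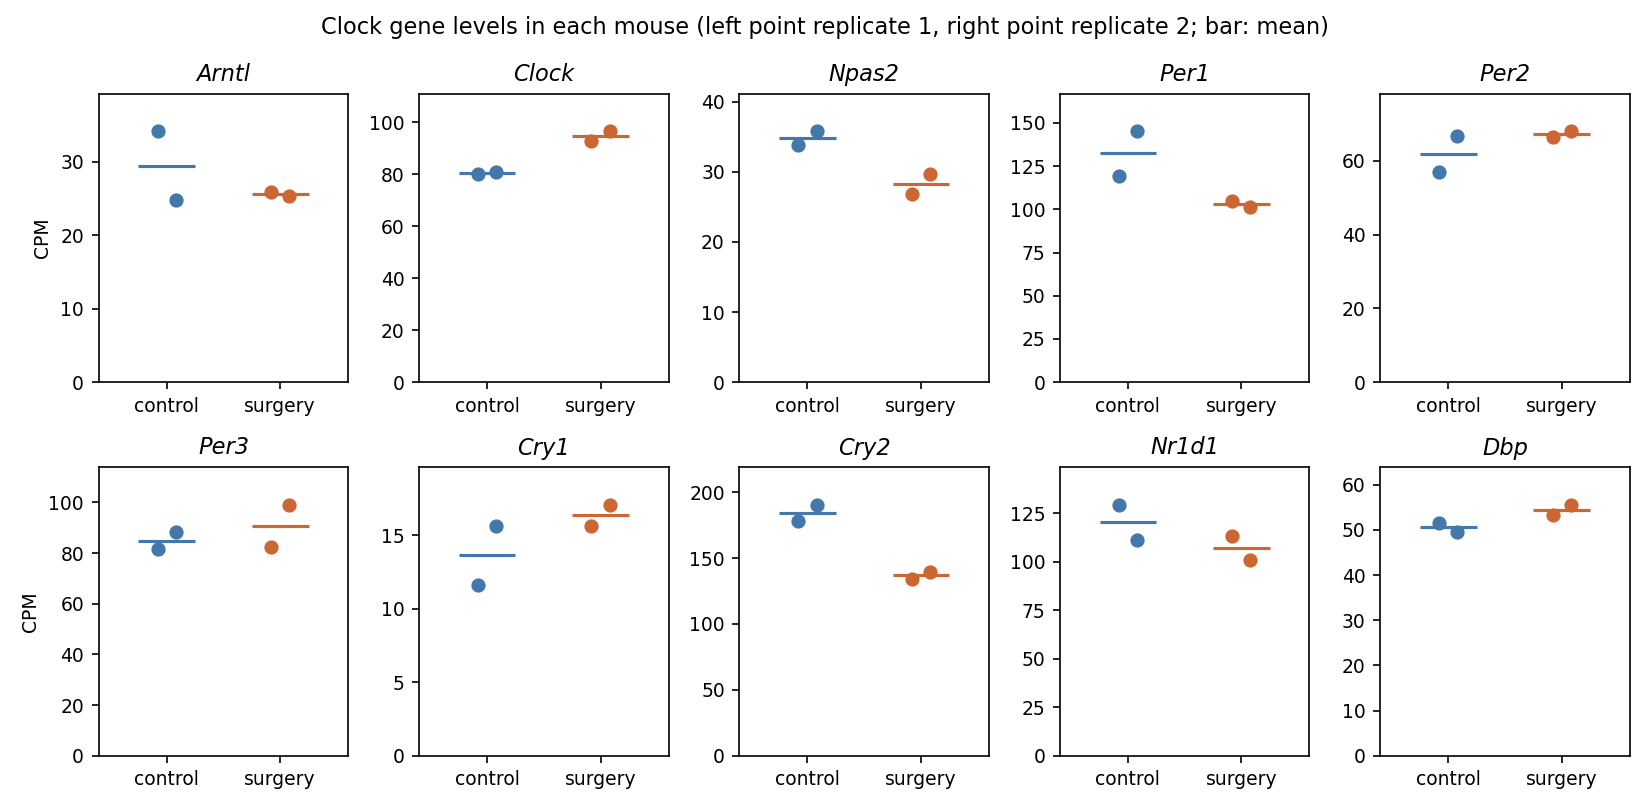
Levels of the 10 clock genes in CPM (vertical axes) in each of the 2 control and 2 surgery mice, 1 panel per gene, with 1 point per mouse and a bar at the mean of each group. Both surgery mice lie above both control mice for Clock and Dbp and below them for Npas2, Per1 and Cry2, and the groups overlap for the other 5 genes. Of all genes tested, 33.2% lie above in this way and 32.2% below.

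Among the activators, Clock rose and its paralog Npas2 had lower values that did not pass the test. CLOCK is the DNA-binding partner of BMAL1, and its gene lies at chr5:76209868-76304792 on the minus strand. Clock was measured at 80.1 and 80.8 CPM in control mice and at 92.8 and 96.5 CPM in surgery mice. Both surgery mice were higher than both control mice, as was the case for 33.2% of all genes tested. The log2 fold change was 0.23 (SE 0.065), a fold change of 1.18 with a 95% confidence interval from 1.06 to 1.31 (edgeR, adjusted p = 0.042, n = 2 mice per group). This call did not hold without control mouse 1, control mouse 2, surgery mouse 1 or surgery mouse 2, each left out in turn (edgeR, adjusted p from 0.089 to 0.16), while the log2 fold change stayed between 0.21 and 0.25. After each library's dependence on transcript length and on GC content was fitted and removed, Clock had a log2 fold change of −0.25 (edgeR, adjusted p = 0.10). The longest transcript of Clock has a GC content of 40.9%, and the 500 tested genes nearest to it in GC content had a median log2 fold change of 0.51, with 45.6% of them called higher.

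Npas2 (chr1:39193731-39363236, plus strand), whose product can take the place of CLOCK in the forebrain, was measured at 33.8 and 35.8 CPM in control mice and at 26.8 and 29.6 CPM in surgery mice. Both surgery mice were lower than both control mice, a pattern that 32.2% of all genes tested shared. The log2 fold change was −0.30 (SE 0.097), and the 95% confidence interval of the fold change ran from 0.690 to 0.952 before adjustment (edgeR, adjusted p = 0.063). Arntl (chr7:113207465-113314126, plus strand), which encodes the partner of both, gave 34.1 and 24.7 CPM in control mice and 25.8 and 25.3 CPM in surgery mice. The high value was that of control mouse 1, and the other 3 mice lay within a narrow range. The log2 fold change of −0.20 (SE 0.16) did not pass (edgeR, adjusted p = 0.39) and was 0.042 without control mouse 1. The 2 control mice differed in Arntl by 0.47 on the log2 scale, against a counting SD of 0.090. This difference was greater than that of 96.0% of the 500 genes nearest to Arntl in expression. Control mouse 1 is also the library with few choroid plexus transcripts, and their part in the level of Arntl was not tested.

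Of the Period genes, Per1 was called lower, and Per2 and Per3 did not pass the test. The product of Per1 is a repressor of the loop, and Per1 is also known to be induced by light and by glucocorticoids. Per1 (chr11:69095217-69109960, plus strand), whose E-box and D-box are printed above, was measured at 119.5 and 145 CPM in control mice and at 105 and 101.5 CPM in surgery mice. Both surgery mice were lower than both control mice, as for 32.2% of all genes tested. Per1 had a log2 fold change of −0.36 (SE 0.10), a fold change of 0.780 with a 95% confidence interval from 0.661 to 0.921 (edgeR, adjusted p = 0.042). The call held without control mouse 1, with a log2 fold change of −0.50. It did not hold without control mouse 2, with a log2 fold change of −0.22, nor without either of the surgery mice. The longest transcript of Per1 has a GC content of 59.4%, and the 500 genes nearest to it in GC content had a median log2 fold change of −0.36, with 41.0% of them called lower. With the length and GC trends removed the log2 fold change was −0.066 (edgeR, adjusted p = 0.71).

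Per2 and Per3 are the paralogs of Per1. Per2 (chr1:91415982-91459324, minus strand) was measured at 57.0 and 66.7 CPM in control mice and at 66.5 and 68.0 CPM in surgery mice, so that the groups overlapped. Its log2 fold change was 0.12 (SE 0.093), with a 95% confidence interval of the fold change from 0.932 to 1.27 (edgeR, adjusted p = 0.38). This log2 fold change was 0.0069 without control mouse 1 and 0.23 without control mouse 2. Per3 (chr4:151003652-151044665, minus strand) was measured at 81.4 and 88.2 CPM in control mice and at 82.3 and 99.1 CPM in surgery mice. The high value was that of surgery mouse 2, without which the log2 fold change of 0.10 (SE 0.10) became −0.039. Over all 4 mice the 95% confidence interval of the fold change of Per3 ran from 0.901 to 1.27 (edgeR, adjusted p = 0.53).

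Of the cryptochromes, which encode the strongest repressors of the CLOCK and BMAL1 pair, Cry2 fell. Cry2 (chr2:92403646-92434043, minus strand) was measured at 178 and 191 CPM in control mice and at 134 and 139 CPM in surgery mice. The groups did not overlap, and both surgery mice were lower than both control mice, as for 32.2% of all genes tested. Cry2 had a log2 fold change of −0.43 (SE 0.065), a fold change of 0.743 with a 95% confidence interval from 0.666 to 0.829 (edgeR, adjusted p = 0.0070). The call held without each mouse in turn, with log2 fold changes from −0.48 to −0.38, and in 11 of the 12 alternative fits. The exception was the removal of length and GC trends, under which the log2 fold change was −0.22 (edgeR, adjusted p = 0.11). The longest transcript of Cry2 has a GC content of 55.6%, and the 500 genes nearest in GC content had a median log2 fold change of −0.25, with 24.6% of them called lower. Cry1 (chr10:85131700-85185064, minus strand), whose promoter window holds the E-box printed above, was measured at 11.6 and 15.6 CPM in control mice and at 15.6 and 17.1 CPM in surgery mice. The groups overlapped, and the low value was that of control mouse 1. For Cry1 the log2 fold change was 0.26 (SE 0.17), with a 95% confidence interval of the fold change from 0.901 to 1.59 (edgeR, adjusted p = 0.31). The log2 fold change was 0.057 without control mouse 1 and 0.49 without control mouse 2. Cry1 was the member with the fewest reads, from 200 counts in control mouse 1 to 288 in surgery mouse 2, and its interval was the widest of the 10.

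**Figure D2:**
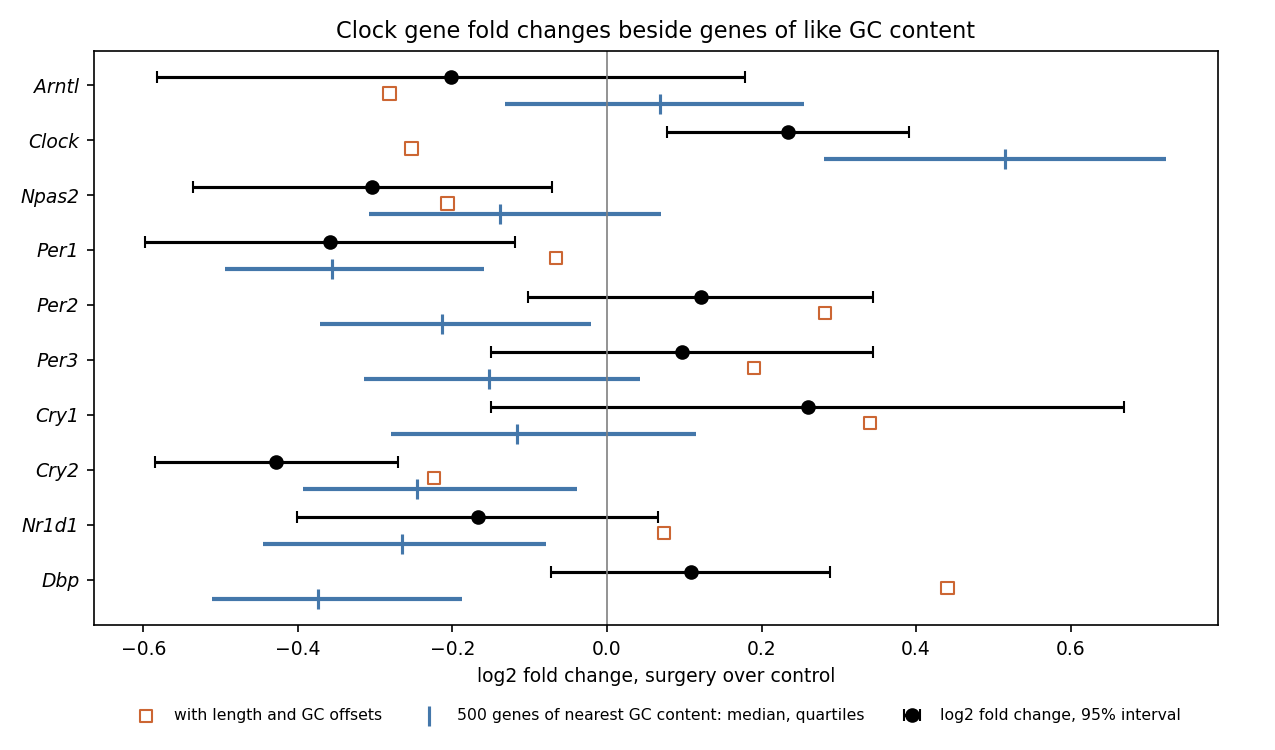
Log2 fold change of each clock gene in surgery against control mice, with its 95% confidence interval (black), beside the median and quartiles of the 500 tested genes nearest to it in transcript GC content (blue) and the log2 fold change with length and GC trends removed (open squares). Clock (0.23) lies below the median of its GC neighbours (0.51), Per1 (−0.36) lies at it, and Dbp (0.11) lies above it (−0.37).

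Nr1d1 encodes REV-ERBα, the receptor that represses Arntl. Nr1d1 (chr11:98767932-98775333, minus strand) was measured at 129.5 and 111 CPM in control mice and at 113 and 101.0 CPM in surgery mice. The groups overlapped, since surgery mouse 1 was above control mouse 2. Nr1d1 had a log2 fold change of −0.17 (SE 0.097), with a 95% confidence interval of the fold change from 0.757 to 1.05 (edgeR, adjusted p = 0.25). The log2 fold change was −0.058 without control mouse 1, −0.28 without control mouse 2, and 0.074 with length and GC trends removed. On the opposite strand, the exons of Thra, which encodes a thyroid hormone receptor, share 263 bases with those of Nr1d1, equal to 8.55% of the Nr1d1 exons. Thra was far more abundant, with 16726 and 19083 counts in control mice against 10172 and 11527 in surgery mice, and it fell by 0.61 on the log2 scale (SE 0.067; edgeR, adjusted p = 0.0045), or by 0.30 with length and GC trends removed, where it was not called (edgeR, adjusted p = 0.069). Whether strand was used in counting is not stated in the sources used here, so reads of this shared stretch cannot be assigned to Nr1d1 or Thra.

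Dbp, an output gene of the loop that encodes an activator at D-boxes, was measured at 51.6 and 49.5 CPM in control mice and at 53.4 and 55.6 CPM in surgery mice (chr7:45705088-45710203, plus strand). Both surgery mice were above both control mice, by a small margin, as for 33.2% of all genes tested. Its log2 fold change of 0.11 (SE 0.075) did not pass, and the 95% confidence interval of the fold change ran from 0.951 to 1.22 (edgeR, adjusted p = 0.33). Dbp had the highest GC content of the 10, 61.6%, and 91.0% of the 500 genes nearest to it in GC content had a lower log2 fold change. With length and GC trends removed the log2 fold change was 0.44 (edgeR, adjusted p = 0.051). Exons of Sphk2, a sphingosine kinase gene on the opposite strand, overlap 18.0% of the Dbp exons. Sphk2 had 640 and 642 counts in control mice and 425 and 439 in surgery mice and fell by 0.46 on the log2 scale (SE 0.089; edgeR, adjusted p = 0.014). Sphk2 was not called without control mouse 1 (edgeR, adjusted p = 0.051) or with length and GC trends removed, at −0.18 (edgeR, adjusted p = 0.34). A shorter overlap joined Cry2 to D930015M05Rik, with 4.67% of the Cry2 exons, and Arntl shared 33 bases with Gm45355. Read on the strand of each transcript, no 75-nt window of the 10 genes occurred in the transcripts of another gene, a search that leaves out the opposite-strand overlaps given here.

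Per length of exon, the clock genes covered a wide range of levels. In control mice Nr1d1 was the most abundant by this measure, at 39.1 ± 4.23 CPM per kb (SD, n = 2). It was followed by Cry2 (29.2 ± 1.43), Per1 (23.5 ± 3.23) and Dbp (16.9 ± 0.48). Per2, Per3, Npas2 and Clock came next at 10.6, 8.83, 7.27 and 5.86 CPM per kb, and Cry1 and Arntl were lowest at 4.08 and 3.91 CPM per kb. By this measure only Cry1 and Arntl could not be ordered in control mice, since their ranges over mice overlapped. The length used is the union of all annotated exons, and the order rests on it. For Cry2 it is 6320 nt against 3976 nt in the longest transcript, and for Nr1d1 3077 against 2721 nt. For Arntl the lengths are 7523 and 3995 nt, and for Clock 13727 and 9744 nt. Levels per length of the longest transcript were not compared. In surgery mice the levels of Per1 (18.3 ± 0.44 CPM per kb) and Dbp (18.2 ± 0.52) overlapped. Per length of all annotated exons the order of Npas2 and Clock was exchanged, with Clock at 6.90 ± 0.19 and Npas2 at 5.89 ± 0.42.

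The spread between mice of a group differed from gene to gene. Between the control mice the log2 difference was 0.012 for Clock and 0.10 for Cry2, but 0.28 for Per1 and 0.43 for Cry1. The difference in Per1 was greater than that of 96.4% of the 500 genes nearest in expression. Between the surgery mice Per3 differed most, by 0.27, more than 95.6% of its neighbours in expression. Over all tested genes the median difference was 0.14 in either group.

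Ratios of paralogs within a mouse do not depend on the scaling of its library. The ratio of Cry2 to Cry1 was 3.94 and 3.61 on the log2 scale in control mice and 3.10 and 3.03 in surgery mice. The groups did not overlap, and the mean difference was −0.70. The GC neighbours of the 2 genes gave a difference of −0.13, and the difference in the ratio ran from −0.87 to −0.54 over 12 alternatives. The ratio of Per1 to Per2 was 1.07 and 1.12 in control mice and 0.66 and 0.58 in surgery mice on the same scale. Its mean difference was −0.48, against −0.14 for the GC neighbours, and ran from −0.52 to −0.35 over the alternatives. Other scalings, other filters and DESeq2 can scarcely move a ratio within a mouse. The ends of both ranges came from leaving out a mouse or from removing length and GC trends. In both of these pairs the surgery mice had less of the first gene relative to the second than the control mice had.

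The ratio of Clock to Npas2 was 1.24 and 1.18 in control mice and 1.79 and 1.70 in surgery mice on the log2 scale. Its mean difference of 0.54 lay below the 0.65 of the GC neighbours and was −0.047 at the lowest of the alternatives, where length and GC trends were removed together. The ratios of Nr1d1 and of Per2 to Arntl overlapped between the groups. That of Dbp to Arntl was 0.59 and 1.00 in control mice and 1.05 and 1.14 in surgery mice, where the low value was that of control mouse 1. The ratios are given as descriptions, with no test, and an exact permutation test with 2 mice per group cannot give a two-sided p below 0.333.

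**Figure D3:**
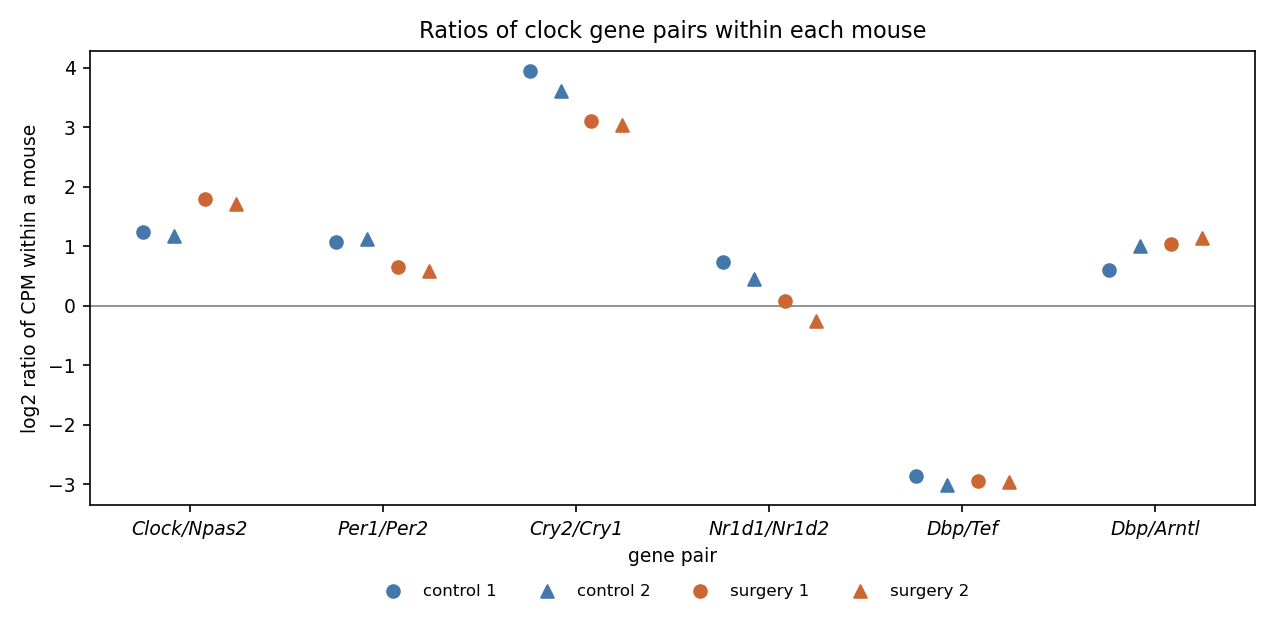
Log2 ratios of pairs of clock genes within each mouse, with 1 point per mouse by group. Both surgery mice lie below both control mice for Cry2/Cry1 and Per1/Per2 and above them for Clock/Npas2, whose difference of 0.54 was −0.047 with length and GC trends removed.

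The other genes of the pathway were taken from lists by role, in which 45 of 47 genes were tested, with 11 called higher and 5 called lower (13.1% and 12.8% of all genes tested). Without control mouse 2 the counts were 8 and 3, and without surgery mouse 2 they were 9 and 3. Of the nuclear receptors that compete at ROREs, the 2 called genes rose. Nr1d2, the paralog of Nr1d1, was measured at 78.0 and 81.1 CPM in control mice and at 107 and 120.1 CPM in surgery mice, with a log2 fold change of 0.52 (SE 0.078; edgeR, adjusted p = 0.0069). Rorb, an activator at ROREs, rose by 0.92 (SE 0.15; edgeR, adjusted p = 0.0075). Rora, another activator at ROREs, had a log2 fold change of 0.32 and did not pass. The Nr1d1 to Nr1d2 ratio differed by −0.68 between the groups, the same as for the GC neighbours of these 2 genes. Nr1d2 was not called with length and GC trends removed, at 0.094 (edgeR, adjusted p = 0.51), nor was Rorb, at 0.48 (edgeR, adjusted p = 0.13).

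Of the factors at D-boxes other than Dbp, Hlf rose by 0.46 on the log2 scale (SE 0.079; edgeR, adjusted p = 0.0092), from 138 and 137 CPM in control mice to 176 and 202 CPM in surgery mice. Tef (0.12) and the repressor Nfil3 (−0.14) did not pass. With length and GC trends removed Hlf was at 0.22 (edgeR, adjusted p = 0.14). None of the 6 further repressors and clock paralogs was called by edgeR or by DESeq2, and none had an unadjusted p under 0.05. Their log2 fold changes were −0.020 for Bhlhe40, 0.16 for Bhlhe41, −0.043 for Ciart, 0.15 for Cipc, 0.046 for Arntl2 and −0.20 for Timeless.

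The enzymes that modify clock proteins moved in both directions. Of 8 kinase genes 4 were called higher and 3 lower, beside 13.1% and 12.8% of all genes tested. Some of these calls were lost when either control mouse was left out. Gsk3a fell by 0.59 (SE 0.064; edgeR, adjusted p = 0.0045) whereas Gsk3b rose by 0.44 (SE 0.062; edgeR, adjusted p = 0.0061), and both encode glycogen synthase kinase 3. Csnk1d, which encodes a casein kinase that phosphorylates PER proteins, fell by 0.40 (SE 0.070; edgeR, adjusted p = 0.010), and Csnk2a1, encoding a casein kinase 2 subunit, rose by 0.38 (SE 0.070; edgeR, adjusted p = 0.012). With length and GC trends removed the log2 fold changes were −0.28 for Gsk3a, 0.24 for Gsk3b, −0.23 for Csnk1d and 0.079 for Csnk2a1. Among 7 genes for ubiquitin ligases and deubiquitinases, Ube3a rose by 1.11 (SE 0.090; edgeR, adjusted p = 0.0042), or was at 0.32 with length and GC trends removed (edgeR, adjusted p = 0.077), and Btrc, whose product marks PER proteins for degradation, fell by 0.30 (SE 0.061; edgeR, adjusted p = 0.016).

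Among 11 chromatin and RNA partners of the clock, Sirt1, a deacetylase gene, rose by 0.92 (SE 0.12; edgeR, adjusted p = 0.0057), the histone demethylase gene Kdm5a rose by 0.40 (edgeR, adjusted p = 0.022), and the histone deacetylase gene Hdac3 fell by 0.26 (edgeR, adjusted p = 0.047). Of 6 tested output genes only Nampt, for an enzyme of NAD synthesis, was called, with a rise of 0.37 (SE 0.11; edgeR, adjusted p = 0.044). Prok2 and Avp had too few counts to be tested. Btrc, Kdm5a and Nampt were not called without control mouse 2 or without surgery mouse 2, and Hdac3 was not called without control mouse 2, surgery mouse 1 or surgery mouse 2. The calls among the output genes changed when control mouse 1 was left out. With length and GC trends removed the log2 fold change was 0.62 for Sirt1, 0.051 for Kdm5a and −0.39 for Hdac3, and that of Nampt turned to −0.14 (edgeR, adjusted p = 0.38). With length and GC trends removed, Btrc was the only one of these 45 genes still called, at −0.80 (edgeR, adjusted p = 0.024). The median log2 fold change over the 45 genes was then −0.013 in place of 0.12. With a replicate block added to that fit, 6 of the 45 were called higher and 6 lower, beside 4.07% and 9.07% of all genes.

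**Figure D4:**
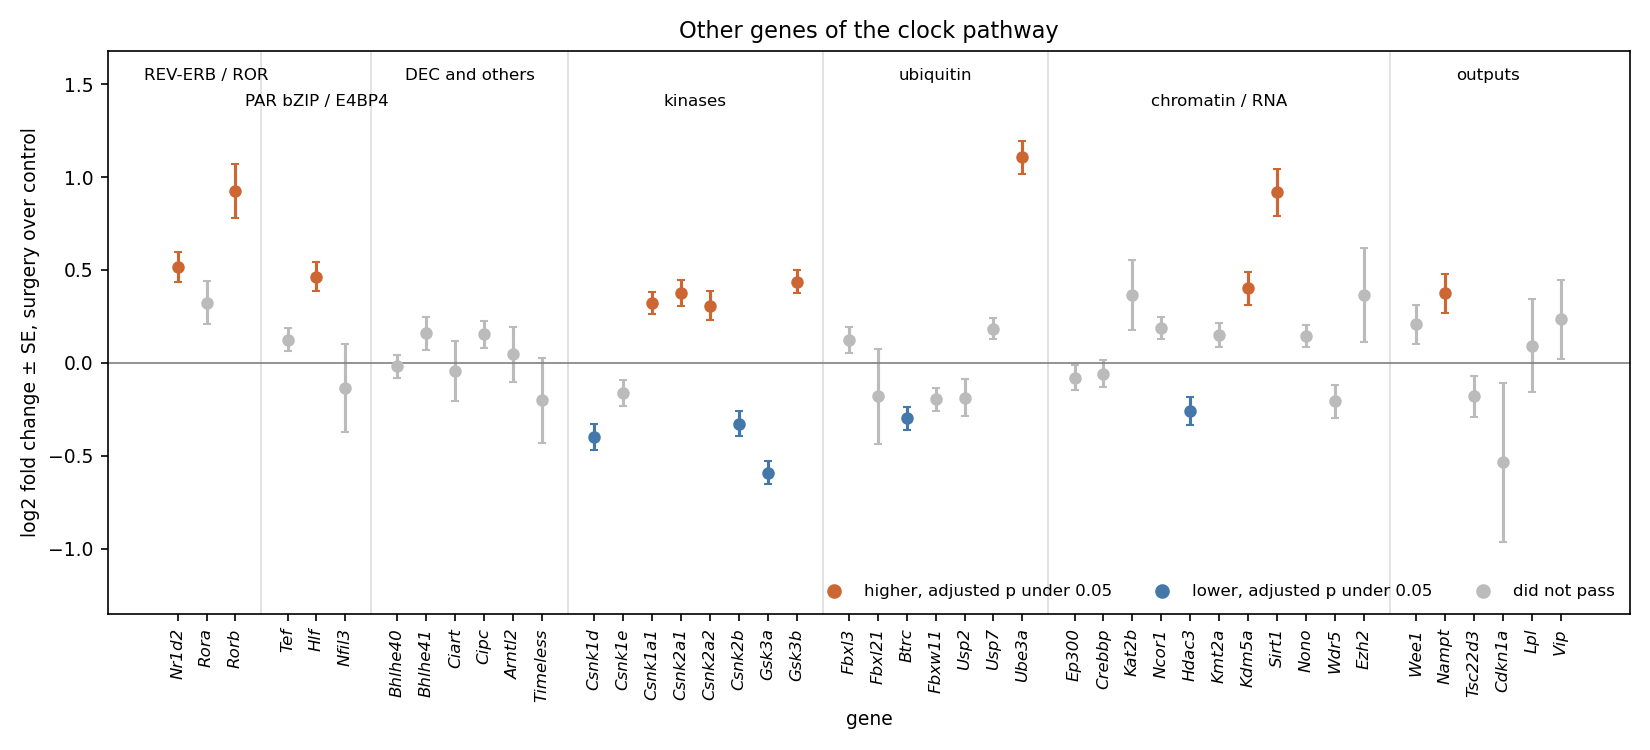
Log2 fold changes (points, vertical axis) with their SE (bars) of other clock pathway genes in surgery against control mice, arranged by list, with called genes in colour and the others in grey. Ube3a (1.11), Rorb (0.92) and Sirt1 (0.92) have the highest values among the called genes and Gsk3a (−0.59) the lowest, and with length and GC trends removed these were 0.32, 0.48, 0.62 and −0.28.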

How the data were processed

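Hippocampal RNA was sequenced from 2 control and 2 surgery mice. According to the study's methods, polyadenylated RNA was sequenced as 150 nt paired-end reads and mapped to mm10. The submitters' processing notes name HISAT2 2.1.0, Bowtie2 2.2.3, TopHat2 and HTSeq 0.6.0, without their roles. The authors deposited raw counts per gene and mouse, which alone entered the tests. The same table holds the authors' own comparison (mean, fold change, p-values and marks), which was not used. Whether strand was used in counting is not given in the sources used here. Groups were taken from the labels, and each library was taken as 1 mouse, as the methods describe.

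The counts were tested with edgeR 4.0.16 under R 4.3.3 (filterByExpr with a minimum count of 10, TMM, quasi-likelihood F test with condition as the only term, Benjamini-Hochberg adjustment over 17144 genes, threshold 0.05). Standard errors were derived from the F statistic. Levels are CPM, with log2 CPM for ratios, and CPM per kb of GENCODE M21 exons. GC neighbours are the 500 tested genes nearest in GC content of the longest transcript. The alternatives were other scalings, DESeq2 1.42.0, other filters, a replicate block, offsets for length and GC trends (mgcv 1.9.3, basis size 8), each mouse left out in turn, and the study's fold limits. Scripts were tested on simulated data. Replicate libraries differed by more than counting noise, with a chi-square per degree of freedom of 12.3 in control and 7.77 in surgery mice. Gene coordinates follow the deposited table and promoter windows are from RefSeq (GRCm38.p6).

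The named genes are the 10 clock genes, genes of the REV-ERB and ROR, D-box factor and further repressor lists, up to 4 called genes of each other list by size of log2 fold change, and genes whose exons overlap a clock gene. Not every gene under this rule is reported here. The members and the lists were chosen with earlier results of these data known.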

Additional observations from a re-analysis of the deposited data

How the results depend on the processing

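Over 12 alternative fits, Cry2 was called lower in 11 and Per1 in 5, and Clock was called higher in 4 and lower in 1. Among the 10 genes the direction turned in 6 cases. Clock was at −0.25 on the log2 scale both with length and GC offsets and with these plus the replicate block, Nr1d1 at 0.074 and 0.077 under the same settings, Arntl at 0.042 without control mouse 1, and Per3 at −0.039 without surgery mouse 2. Over the mice left out in turn, Arntl ran from −0.42 to 0.042 and Per3 from −0.039 to 0.21. The cause was not tested.

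Against 1 clock gene higher and 2 lower, library totals gave 1 lower and DESeq2 gave 0 higher (4 of the 10 had an unadjusted p under 0.05 in edgeR). Without a filter there were 0 higher and 1 lower, and 1315 and 1350 of all genes in place of 2250 and 2199. Length and GC offsets gave 0 and 0, and 118 and 296 of all genes. The study's fold limits gave 0 and 0, and 1158 and 386 of all genes. Leaving out each mouse gave 0 higher and 1 to 2 lower clock genes, with 1201 to 2025 of all genes higher and 1207 to 2080 lower, the lowest without control mouse 2. Of all calls 50.6% were higher, against 59.4% with library totals and 28.5% with offsets.

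No source used here says that a replicate number marks a shared litter, batch or day. Same-numbered mice of the 2 groups correlated at 0.22 in their deviations from the group mean. The crossed pairing, at −0.22, is by construction the same value with its sign reversed, since each group holds 2 mice. With just 2 pairs the correlation does not settle whether the numbers pair the mice. The replicate block gave 2655 genes higher and 2626 lower, with 1 clock gene higher and 3 lower, adding Npas2 (edgeR, adjusted p = 0.042). The block together with length and GC offsets gave 2 clock genes higher, Per2 and Dbp, and 2 lower, with 696 of all genes higher and 1552 lower. With 2 mice per group, small differences could go undetected. The intervals given are before adjustment and do not mark a detection limit for the calls. Cry1, at 200 to 288 counts, is the least precise.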

Other observations

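Because Per1 is known to respond to glucocorticoids and to neuronal activity, genes of both responses were listed as well. Of 10 glucocorticoid-induced genes none was called over all 4 mice by edgeR or DESeq2 and none had an unadjusted p under 0.05, with a median log2 fold change of −0.23. This count rested on the setting, since 3 of the 10 were called lower with a replicate block (Fkbp5, Sgk1 and Nfkbia; 15.3% of all genes were lower there), 3 without control mouse 1 (Cdkn1a, Sgk1 and Nfkbia, beside 9.62%) and 1 without surgery mouse 2 (Fkbp5, beside 7.54%). The median was −0.35 without control mouse 1 and 0.0063 without control mouse 2. These genes are named after their values were seen.

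Of 13 activity-induced immediate early genes none was called over all 4 mice by either tool, 1 had an unadjusted p under 0.05, and the median was −0.12. Here the surgery mice decided the direction, with 6 of 13 called lower and a median of −0.46 without surgery mouse 1 (11.6% of all genes lower), against 2 called higher and a median of 0.085 without surgery mouse 2 (8.88% of all genes higher). Over all genes tested 13.1% were called higher and 12.8% lower in the comparison of all 4 mice.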
